A study of Mus musculus with 6 samples.

Results

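This account describes 40 endothelial and angiogenesis genes in the fetal mouse ovary with and without Dmrt1. They are markers, receptors, ligands and transcription factors of blood and lymphatic vessels. The genes were chosen by name for that function, but with earlier results of these data known. Shares of members set beside all tested genes are therefore descriptions without a test. All 40 were on the array, out of 18193 genes named by at least 1 probe set. Each was read through the probe set that names that gene alone and has the highest mean over all 6 arrays. Of the 40, 33 were bright enough to be tested and 7 were not.

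The study profiled ovaries dissected from embryos at E15.5, a stage counted in days of embryonic life, on 6 Affymetrix arrays. The knockout group, with 3 arrays, was labelled dmrt1 and KO, and the wild-type group, with 3 arrays, was labelled WT. Dmrt1 encodes a DM domain transcription factor that acts in germ cells and in the testis. The labels name no Cre line, no cell type in which the deletion was made and no strain, and they do not say whether replicates were separate animals or pools. The p-values therefore measure the spread between these arrays, which may be technical.

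Vascular endothelial cells line blood and lymphatic vessels. VEGF ligands act on them through the receptors Kdr, Flt1 and Flt4 with the neuropilins as partners, and angiopoietins act through Tek. In the fetal ovary vessels grow in from the mesonephros and branch among the cords of germ cells and pregranulosa cells, and the endothelium does not itself belong to the cells in which Dmrt1 is best known.

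Values are intensities on a linear scale, as deposited, and differences are knockout minus wild type on the log2 scale with the standard error of the limma fit. A gene was tested if it reached an intensity of 16 on at least 3 arrays, and it was called at a Benjamini-Hochberg adjusted p under 0.05. Array medians ran from 13.1 to 13.4 (knockout) and from 14.4 to 14.7 (wild type). Knockout replicate 1 stood apart in Xist, the RNA of the inactive X chromosome, with a mean log2 of 1.81 over its probe sets against 9.75 to 9.85 on the other knockout arrays and 10.7 to 10.9 in wild type. Y-linked genes were at the floor on all 6 arrays. The Dmrt1 probe set read log2 2.58 to 3.10 in knockout against 3.08 to 3.70 in wild type, too dim to check the genotype labels.

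The receptors Flt1, Nrp1 and Tek passed the test, all lower in knockout, and their promoter sequences are shown for that reason. The windows run from 250 bases before to 50 bases after the annotated start and come from RefSeq, build GRCm38.p6. Capitals mark AGGAAG, a core of ETS factor sites, AACAAT, a core of SOX sites, and AGATAA, a core of GATA sites, on either strand. Among the members, Erg, Fli1 and Ets1 are ETS factors and Sox7, Sox17 and Sox18 are SOX factors, while no member is a GATA factor. The marked matches do not overlap each other.
Flt1 promoter, chr5:147725962-147726261, minus strand: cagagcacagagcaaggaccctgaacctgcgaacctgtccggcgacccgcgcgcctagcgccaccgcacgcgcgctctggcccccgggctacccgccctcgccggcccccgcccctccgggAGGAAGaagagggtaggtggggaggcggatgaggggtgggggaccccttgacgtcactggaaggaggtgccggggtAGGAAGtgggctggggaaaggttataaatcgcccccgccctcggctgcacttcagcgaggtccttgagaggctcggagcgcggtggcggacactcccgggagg
Tek promoter, chr4:94739039-94739338, plus strand: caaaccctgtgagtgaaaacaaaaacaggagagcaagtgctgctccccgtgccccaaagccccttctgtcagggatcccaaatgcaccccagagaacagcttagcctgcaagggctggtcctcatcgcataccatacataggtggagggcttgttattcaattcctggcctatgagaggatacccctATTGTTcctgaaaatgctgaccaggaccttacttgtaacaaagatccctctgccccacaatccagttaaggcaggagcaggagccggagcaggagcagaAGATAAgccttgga
Nrp1 promoter, chr8:128358823-128359122, plus strand: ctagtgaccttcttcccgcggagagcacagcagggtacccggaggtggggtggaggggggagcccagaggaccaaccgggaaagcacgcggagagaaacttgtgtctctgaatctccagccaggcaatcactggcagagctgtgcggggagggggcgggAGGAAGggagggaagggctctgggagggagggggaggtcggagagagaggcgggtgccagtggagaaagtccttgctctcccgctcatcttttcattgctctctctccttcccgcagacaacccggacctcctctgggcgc

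The Flt1 window held 2 matches to AGGAAG, the Nrp1 window held 1, and the Tek window held none of these but 1 match each to AACAAT and AGATAA. RefSeq windows were matched for 19 of the 40 members, 25 windows in all. AGGAAG was in 12 of the 25 (48.0%), against 35.4% of all 32851 windows. AACAAT was in 4 (16.0%, against 10.7%) and AGATAA in 4 (16.0%, against 11.2%). TACANTGT, a core of DMRT sites, was in 0 of the 25, against 2.7% of all windows. A match describes these letters only.

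The receptors were the role with most calls. Of 13 tested receptors, 3 fell in knockout, 0 rose and 10 did not pass, and 12 of 13 differences were below 0. Over all 33 tested members 3 were called lower (9.09%), against 2.27% of the 11897 genes tested, and 0 were called higher, against 1.28%. At an unadjusted p under 0.05, 11 members were lower (33.3%) and 0 were higher, against 9.33% and 8.12% of all tested genes. In bulk tissue, fewer endothelial cells and less RNA per endothelial cell cannot be told apart.

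Flt1, a VEGF receptor that binds VEGFA tightly and limits its action on Kdr, read 95.0, 86.2 and 98.6 on knockout replicates 1 to 3 and 157, 151 and 215 on wild-type replicates 1 to 3. Every knockout array was below every wild-type array, and wild-type replicate 3 was the highest. Flt1 fell 1.85-fold (log2 difference -0.88 with SE 0.19, 3 arrays against 3, limma adjusted p = 0.0184). Without wild-type replicate 3 the difference was -0.72 and was no longer called (limma adjusted p = 0.0911). The call rests on 1 probe set, since the other Flt1 probe sets were too dim to be tested and differed by -0.70, -0.15 and 0.17.

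Nrp1, a neuropilin that serves as a partner of VEGF receptors and also acts in axon guidance and mesenchyme, read 912, 888 and 1011 in knockout and 1240, 1285 and 1341 in wild type. The groups lay well apart, with little spread inside either. Nrp1 fell 1.38-fold (-0.46 ± 0.11, limma adjusted p = 0.0364). Tek, the angiopoietin receptor also called Tie2, read 577, 559 and 664 in knockout and 904, 788 and 864 in wild type, again with no overlap. Tek fell 1.42-fold (-0.51 ± 0.13, limma adjusted p = 0.0452).

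The calls of Nrp1 and Tek were close to the threshold. Each ended on leaving out any array but knockout replicate 3, with limma adjusted p of 0.0582 to 0.169 for Nrp1 and 0.0777 to 0.171 for Tek, while their differences stayed between -0.56 and -0.42. Both calls also ended without the intensity trend, with the replicate block and with averaged probe sets (limma adjusted p = 0.0525 to 0.135). Tek alone lost its call with a filter at log2 5 (0.0539), quantile normalization (0.0537) and median centring (0.0507, limma adjusted p). Flt1 was the 1 member called when knockout replicate 1, knockout replicate 2, wild-type replicate 1 or wild-type replicate 2 was left out, and 0 members were called without wild-type replicate 3. Without knockout replicate 3, 5 members were called, Flt1, Nrp1, Nrp2, Tek and Vwf.

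Nrp2, Flt4, Ramp2, Robo4 and Kdr were lower on every knockout array than on any wild-type array but did not pass. Nrp2, a neuropilin that pairs with the lymphatic receptor Flt4, read 279, 373 and 467 in knockout and 546, 543 and 619 in wild type, a difference of -0.64 ± 0.19 (limma adjusted p = 0.0787). Flt4, the VEGFC receptor of lymphatic and growing vessels, read 444, 454 and 407 in knockout and 495, 635 and 772 in wild type (-0.52 ± 0.17, limma adjusted p = 0.112). Nrp2 varied more among the knockout arrays and Flt4 more among the wild-type arrays.

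Ramp2, which with Calcrl forms the adrenomedullin receptor, read 1513, 1206 and 1543 in knockout and 2065, 1717 and 1913 in wild type (-0.42 ± 0.13, limma adjusted p = 0.0862). Robo4, an endothelial roundabout receptor, read 521, 592 and 643 in knockout and 662, 659 and 834 in wild type (-0.29 ± 0.15, limma adjusted p = 0.301). Kdr, the main signalling receptor of VEGFA, read 59.4, 56.9 and 56.6 in knockout and 60.7, 69.8 and 76.0 in wild type (-0.25 ± 0.17, limma adjusted p = 0.452). For Robo4 and Kdr the nearest knockout and wild-type arrays almost touched.

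The other tested receptors overlapped between groups. Aplnr, the apelin receptor of angioblasts and venous endothelium, read 4715 to 5746 in knockout against 5468 to 6465 in wild type (-0.23 ± 0.10, limma adjusted p = 0.228), while its second probe set differed by -0.82 ± 0.27 (limma adjusted p = 0.107) and the mean of both by -0.53 (limma adjusted p = 0.116). Calcrl read 1291 to 1511 in knockout against 1328 to 1701 in wild type (-0.15 ± 0.12, limma adjusted p = 0.556). Eng and Acvrl1, the endothelial receptors of BMP9 and BMP10 signals, differed by -0.22 ± 0.23 and -0.20 ± 0.20. Tie1, the partner of Tek, differed by 0.06 ± 0.28 and was the single tested receptor with a difference above 0. S1pr1, the sphingosine 1-phosphate receptor, was below the filter on all 6 arrays.

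**Figure D1:**
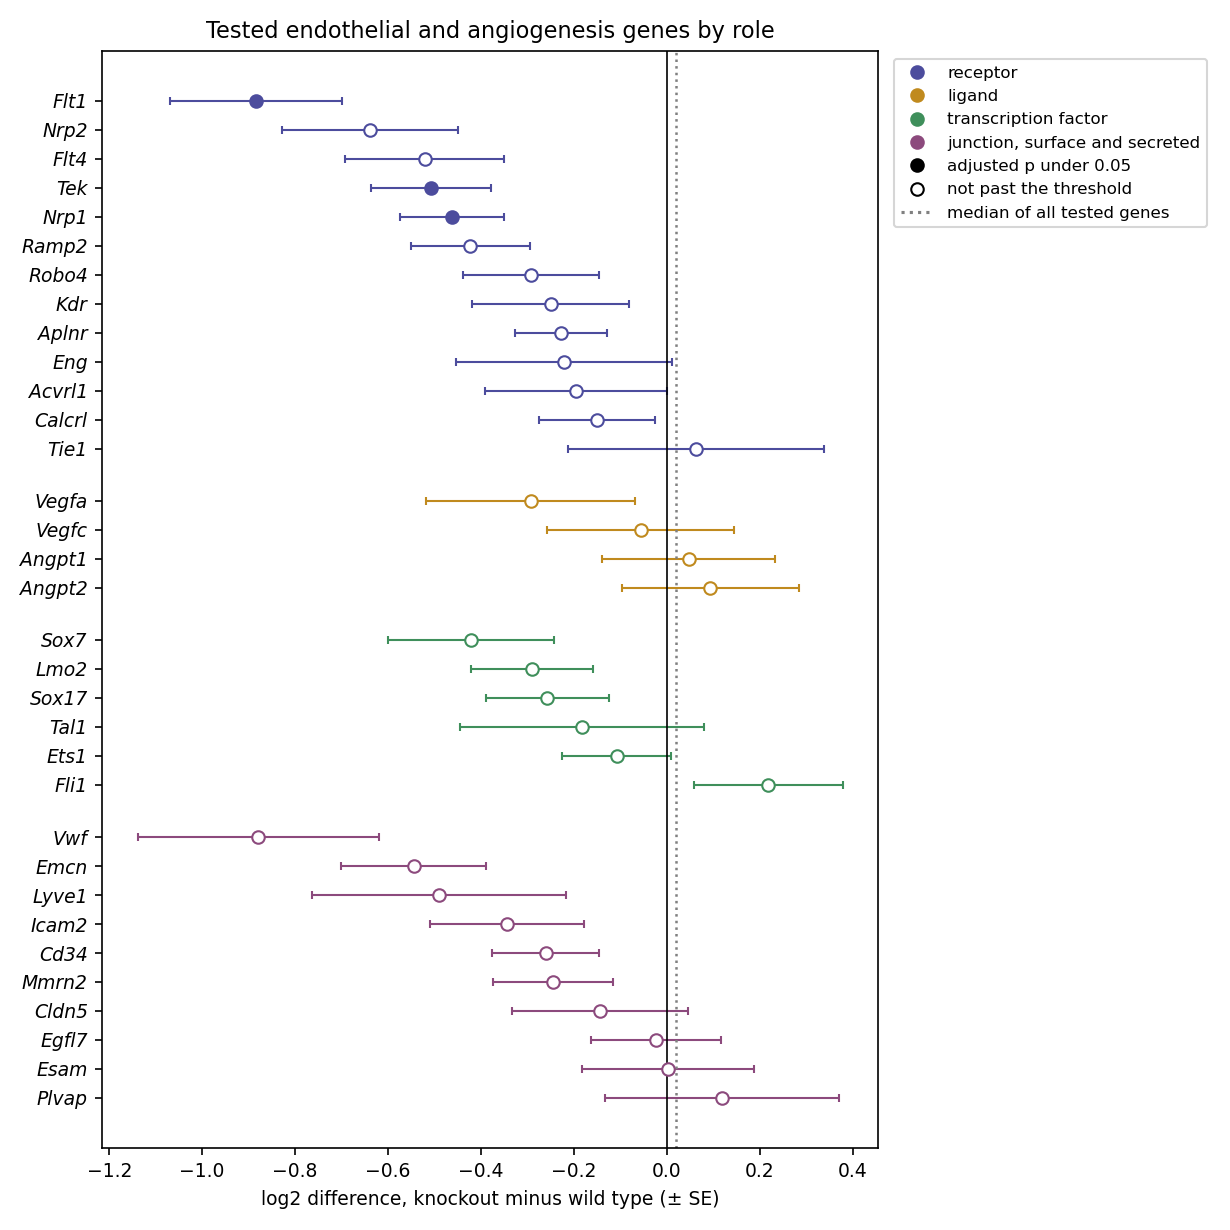
Log2 difference, knockout minus wild type, for the 33 tested genes, grouped by role, with bars for the standard error of the fit (n = 3 arrays per group) and filled points for an adjusted p under 0.05. The filled points are Flt1, Tek and Nrp1; 27 of 33 points lie below 0, and the dotted line at 0.02 is the median of all tested genes.

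Read by their brightest probe sets, ligands did not shift in 1 direction. Of 4 tested, 0 passed in limma, 0 had an unadjusted p under 0.05, and 2 differences were below 0 and 2 above. Vegfa, the chief VEGF of growing vessels, read 169, 230 and 122 in knockout and 199, 192 and 227 in wild type (-0.29 ± 0.22, limma adjusted p = 0.518), so that knockout replicate 2 was above all wild-type arrays and the other knockout arrays were below them. Vegfc, the ligand of Flt4, read 1038, 1763 and 1122 in knockout and 1216, 1180 and 1608 in wild type (-0.06 ± 0.20, limma adjusted p = 0.912). On these probe sets both ligands were highest on knockout replicate 2 and thus had a wide knockout spread. Further Vegfc probe sets differed by -0.51 ± 0.16 and -0.23 ± 0.21 (limma adjusted p = 0.0883 and 0.609), so the size of its difference depends on the probe set.

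Angpt1, the activating ligand of Tek, differed by 0.05 ± 0.19, and Angpt2, which modulates Tek in remodelling vessels, by 0.09 ± 0.19, near the filter level at intensities of 16.2 to 22.3. Apln, the apelin ligand, was below the filter on all 6 arrays.

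Of 6 tested transcription factors 0 passed in limma, and 1 was lower at an unadjusted p under 0.05, against 9.33% of all tested genes. That gene was Sox7, a SOXF factor of endothelial fate, which read 62.7, 51.1 and 49.8 in knockout and 68.1, 69.5 and 81.0 in wild type, without overlap (-0.42 ± 0.18, limma adjusted p = 0.215). Lmo2, an adaptor of endothelial and blood progenitor factors, was also lower on every knockout array, at 463, 459 and 403 against 544, 515 and 559 (-0.29 ± 0.13, limma adjusted p = 0.247). Fli1, an ETS factor, was the 1 tested member higher on every knockout array, at 91.6, 85.9 and 94.5 against 79.3, 72.8 and 81.7 (0.22 ± 0.16, limma adjusted p = 0.494).

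Sox17, the arterial SOXF factor, read 639 to 695 in knockout against 686 to 855 in wild type (-0.26 ± 0.13, limma adjusted p = 0.312). Ets1 read 1102 to 1346 and 1294 to 1391 (-0.11 ± 0.12, limma adjusted p = 0.659). Tal1, a factor of blood and endothelial progenitors, differed by -0.18 ± 0.26, with overlap. Sox18 was below the filter on all 6 arrays, and Erg reached it on 1 wild-type array, at 16.1.

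Among junction, surface and secreted proteins 0 of 10 tested passed in limma. An unadjusted p under 0.05 was reached by 3, all lower, against 9.33% of all tested genes lower at that level. On every knockout array 4 were lower than on any wild-type array, against 11.4% of all tested genes. Emcn, the sialomucin endomucin of veins and capillaries, read 688, 520 and 566 in knockout and 735, 872 and 979 in wild type (-0.55 ± 0.16, limma adjusted p = 0.0716). Vwf, the clotting factor stored in endothelial granules, read 19.7, 15.6 and 28.4 in knockout and 39.98, 28.9 and 46.9 in wild type (-0.88 ± 0.26, limma adjusted p = 0.0797). Vwf was dim, with knockout replicate 2 under the filter level and the nearest arrays of both groups almost equal.

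Cd34, a sialomucin that vascular endothelium shares with stromal and blood progenitors, read 756, 802 and 782 in knockout and 910, 899 and 996 in wild type (-0.26 ± 0.12, limma adjusted p = 0.232). Icam2, an adhesion molecule of endothelial junctions, read 190, 161 and 182 in knockout and 197, 222 and 259 in wild type (-0.34 ± 0.17, limma adjusted p = 0.279). Both genes kept the order of the groups with a modest gap.

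Of the others, Mmrn2, an endothelial matrix protein, read 962 to 1142 in knockout against 1081 to 1369 in wild type (-0.24 ± 0.13, limma adjusted p = 0.326). Cldn5, the endothelial tight junction claudin, read 557 to 889 and 665 to 897 (-0.14 ± 0.19, limma adjusted p = 0.724). Lyve1, a hyaluronan receptor of lymphatics and of some macrophages, differed by -0.49 ± 0.27 with overlap. Egfl7 (-0.02 ± 0.14), Esam (0.00 ± 0.18) and Plvap (0.12 ± 0.25), a secreted endothelial factor, a junction molecule and the protein of fenestral diaphragms, had differences close to 0 or above it.

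The textbook endothelial markers Pecam1 and Cdh5 gave no usable signal. Pecam1, also called CD31, read 7.29 to 9.79 in knockout against 7.61 to 9.21 in wild type, and Cdh5, VE-cadherin, read 7.72 to 8.14 and 8.70 to 9.85. Nos3, the endothelial nitric oxide synthase, was below the filter on all arrays too. Of the 10 defining endothelial markers, Pecam1, Cdh5, Tek, Tie1, Kdr, Emcn, Esam, Egfl7, Cldn5 and Plvap, 8 were tested. Among those 8, 1 fell, Tek, 0 rose and 7 did not pass; 5 differences were below 0 and 3 above, with a median of -0.08, closer to 0 than the median of -0.25 over all tested members. The 7 untested members lay between 6.24 and 16.1 on every array, where GCRMA values have little meaning, and are left out of all counts of differences.

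**Figure D2:**
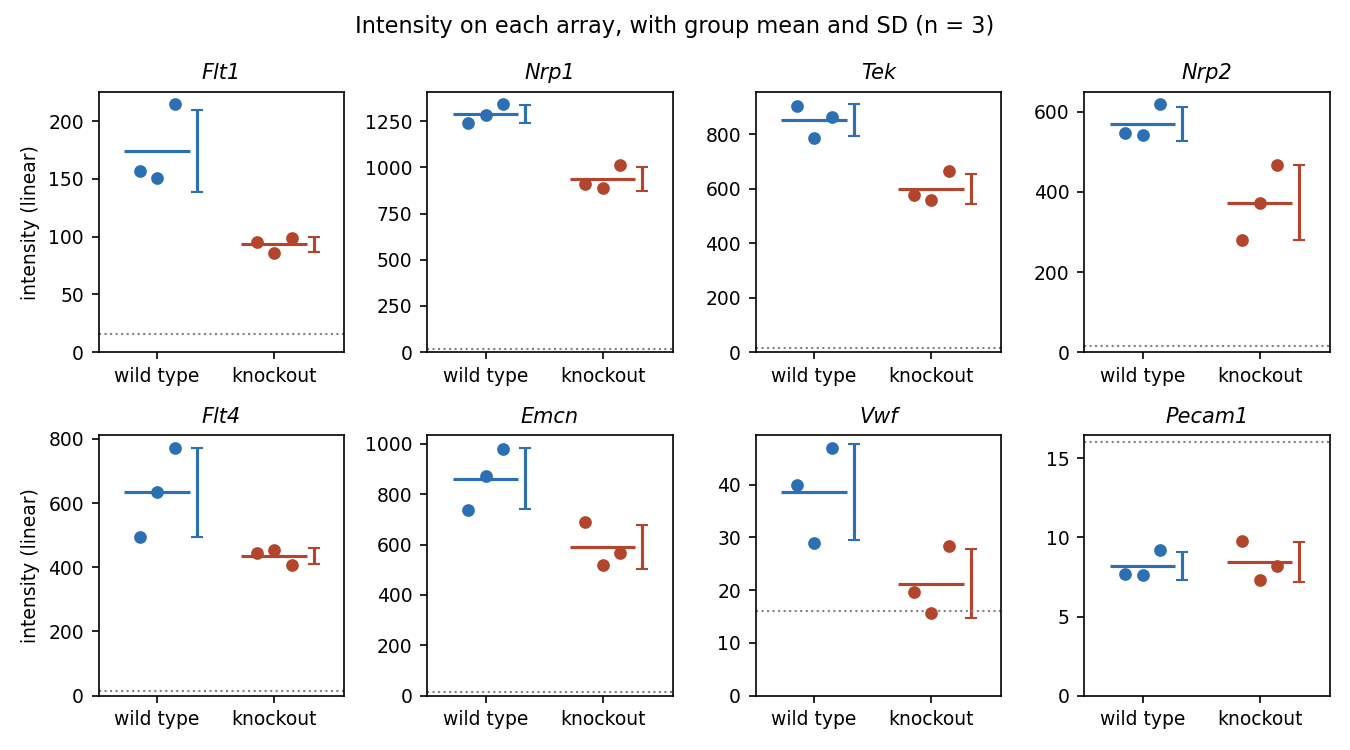
Intensity of 8 members on each array on a linear axis from 0, with each group's mean as a horizontal line and its SD as a bar (n = 3 arrays per group); the dotted line is the filter level of 16. For Flt1, Nrp1, Tek, Nrp2, Flt4, Emcn and Vwf every knockout point lies below every wild-type point, while Pecam1 stays under the filter level on all arrays.

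The direction was shared by members that were not called. Among 33 tested members 27 had a difference below 0 (81.8%), against 46.6% of all tested genes. In 14 (42.4%) every knockout array was below every wild-type array, against 11.4% of all tested genes, and in 1 every knockout array was above, against 12.3%. The median difference was -0.25, against 0.02 over all tested genes. By role the median was -0.29 for receptors, -0.25 for junction, surface and secreted proteins, -0.22 for transcription factors and -0.005 for ligands.

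The 3 knockout arrays were alike in this respect. The median over the tested members of the log2 value minus the gene's wild-type mean was -0.28, -0.27 and -0.28 on knockout replicates 1 to 3, and -0.01, -0.11 and 0.15 on wild-type replicates 1 to 3. With Flt1, Nrp1 and Tek left aside, the other 30 gave -0.26, -0.23 and -0.26 in knockout and 0.00, -0.11 and 0.15 in wild type. Wild-type replicate 3 held the highest value of the 6 arrays for 20 of the 33 members and wild-type replicate 1 for 6. Without wild-type replicate 3 the median difference was -0.18 and 25 of 33 were below 0, and without knockout replicate 1 they were -0.24 and 25.

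Several members have further probe sets on the array. Of 12 members with more than 1 tested probe set, all tested probe sets had the same direction in 9, and 16 of the 20 further probe sets followed the direction of the brightest. A second Nrp2 probe set fell by 0.93 ± 0.19 and passed (limma adjusted p = 0.0164), with log2 values of 6.20, 6.58 and 6.40 in knockout and 7.23, 7.13 and 7.61 in wild type. It was the only 1 of the 20 to pass.

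The second Flt4 probe set differed by -0.90 ± 0.25 (limma adjusted p = 0.0652), and both further Nrp1 probe sets were lower on every knockout array (-0.53 ± 0.19 and -0.42 ± 0.15, limma adjusted p = 0.132 and 0.133). For Vegfc a further probe set differed by -0.51 ± 0.16 (limma adjusted p = 0.0883), without overlap between groups, unlike the brightest. The probe sets of Fli1, Ets1 and Egfl7 disagreed in direction. The second Fli1 probe set differed by -0.51 ± 0.33, against 0.22 for the brightest, so the direction of Fli1 depends on the probe set.

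**Figure D3:**
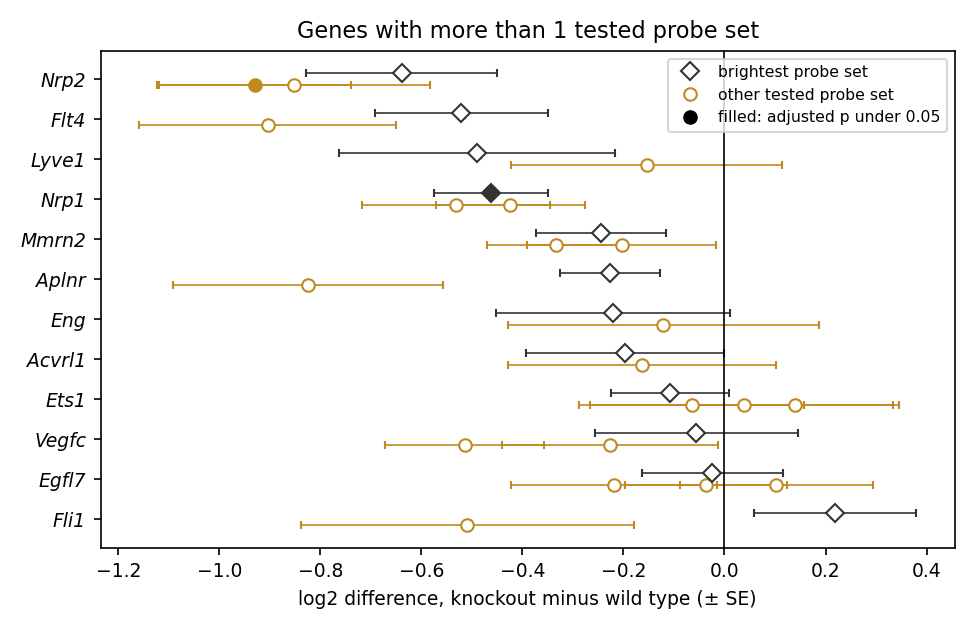
Log2 difference, knockout minus wild type, for each tested probe set of the 12 members with more than 1, with bars for the standard error (n = 3 arrays per group), diamonds for the brightest probe set and circles for the others. Filled marks passed an adjusted p of 0.05; for Nrp2 a circle at -0.93 is filled while the diamond at -0.64 is not, and Fli1 has marks on both sides of 0.

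Other vascular genes, 51 genes of the same pathways that are not members, were read in the same way. Of 45 tested, 4 fell, against 2.27% of all tested genes, 0 rose and 41 did not pass. Of the 45 differences 30 were below 0 (66.7%, against 46.6% of all tested genes), with a median of -0.12. At an unadjusted p under 0.05, 9 were lower (20%, against 9.33% of all tested genes) and 1 was higher. Ptprb, the receptor phosphatase VE-PTP that acts on Tek and on junctions, read 223, 219 and 289 in knockout and 455, 464 and 424 in wild type and fell 1.85-fold (-0.89 ± 0.16, limma adjusted p = 0.00736). It was called without any single array, although not when the probe sets of a gene were averaged (-0.75, limma adjusted p = 0.0669).

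Cd93, a surface receptor of endothelium and some blood cells, fell 1.43-fold (-0.51 ± 0.11, limma adjusted p = 0.0167), from 2509, 2587 and 2748 in wild type to 1896, 1628 and 1985. Epas1, the hypoxia factor HIF2A, read 1004, 707 and 1173 in knockout and 1470, 1566 and 1530 in wild type (-0.69 ± 0.17, limma adjusted p = 0.0391). Arhgef15, a gene enriched in endothelium, read 49.3, 48.8 and 43.5 in knockout and 67.0, 82.9 and 96.9 in wild type (-0.79 ± 0.19, limma adjusted p = 0.0353). In all 4 genes the groups did not overlap, but these genes were picked by their calls. Among the 45 tested, 9 had every knockout array below every wild-type array, against 11.4% of all tested genes. In 0 of the 45 every knockout array was above, against 12.3%. Arhgef15 was not called with quantile normalization (-0.69, limma adjusted p = 0.0652), nor without knockout replicate 2 (0.059) or 3 (0.0799). Cd93, Epas1 and Ptprb kept their calls in these settings. Without knockout replicate 1 the called genes were Cd93 and Ptprb, without wild-type replicate 1 they were Arhgef15 and Ptprb, without wild-type replicate 2 Adgrl4 and Ptprb, and without wild-type replicate 3 Ptprb alone.

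Marker lists of other cell types moved as well, and their part in the vascular values was not tested. Over all tested genes, 46.6% of differences were below 0 and 2.27% were called lower. All 14 macrophage and leukocyte genes had a difference below 0, and 2 fell, Ptprc (-1.06 ± 0.25, limma adjusted p = 0.0357) and Mrc1 (-0.72 ± 0.17, limma adjusted p = 0.0358), with 12 not passing. Their summed intensity ran from 7717 to 11834 over the knockout arrays and from 10616 to 13202 over the wild-type arrays, and the low end was knockout replicate 1, whose median shift was -0.78 against -0.12 and -0.07 on the other knockout arrays. The call of Ptprc ended on leaving out any array but knockout replicate 3 (limma adjusted p = 0.0526 to 0.138), and that of Mrc1 on leaving out any but knockout replicate 2 (0.0705 to 0.14).

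In stroma, 9 of 10 genes had a difference below 0 and 0 passed in limma. At an unadjusted p under 0.05, 4 were lower, against 9.33% of all tested genes. The summed intensity of that list was between 41049 and 42792 in knockout and between 45963 and 50609 in wild type, without overlap, and its median difference was -0.23, near the -0.25 of the vascular members. In the list of pericyte and smooth muscle genes, which cover the vessel wall, 8 of 11 differences were below 0. Notch3, a Notch receptor of mural cells, fell by 0.67 ± 0.13 (limma adjusted p = 0.0137), and the other 10 did not pass. This list summed to between 7839 and 9058 on knockout arrays and between 8947 and 10265 on wild-type arrays. Notch3 was not called without wild-type replicate 1 (0.0505) or 3 (0.0805, limma adjusted p).

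All 6 tested erythroid genes had a difference below 0, and Slc4a1, which moves bicarbonate across the red cell membrane, fell by 1.44 ± 0.33 (limma adjusted p = 0.0275), while the median of that list on wild-type replicate 2 (-0.65) was as low as on the knockout arrays (-0.65 to -0.56). Slc4a1 lost its call when knockout replicate 1 (limma adjusted p = 0.0837), knockout replicate 2 (0.0684), wild-type replicate 1 (0.0775) or wild-type replicate 3 (0.0682) was left out. The erythroid genes summed to between 7951 and 9681 on knockout arrays and between 9256 and 10335 on wild-type arrays, with Hba-a1 and Epor under the filter. Of 6 platelet genes, which share Vwf with endothelium, 1 was tested, Pf4, at -0.38 ± 0.16 (limma adjusted p = 0.222), and the other 5 were under the filter; the 6 summed to between 1012 and 1306 on knockout arrays and between 1352 and 1920 on wild-type arrays.

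In lists of the other ovarian cells, differences were above 0 in 9 of 11 pregranulosa genes, 6 of 8 germ cell genes and 5 of 5 tested genes of the mesonephros and ducts, with medians of 0.23, 0.31 and 0.27, while 53.4% of all tested genes were above 0. The germ cell shift was uneven, at 0.60, 0.26 and 0.02 on knockout replicates 1 to 3 against -0.14, 0.11 and -0.05 in wild type, so that knockout replicate 3 lay inside the wild-type range. In these lists 1 gene passed, Dppa3, a germ cell and oocyte gene, which rose by 4.22 ± 0.76 (limma adjusted p = 0.00817, and 0.0625 with robust eBayes). It read 1182, 197 and 76.8 in knockout and 12.2, 12.1 and 18.8 in wild type, and without knockout replicate 1 the difference was 3.13. Arrays report each RNA relative to the total, and the balance between these lists was not tested.

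**Figure D4:**
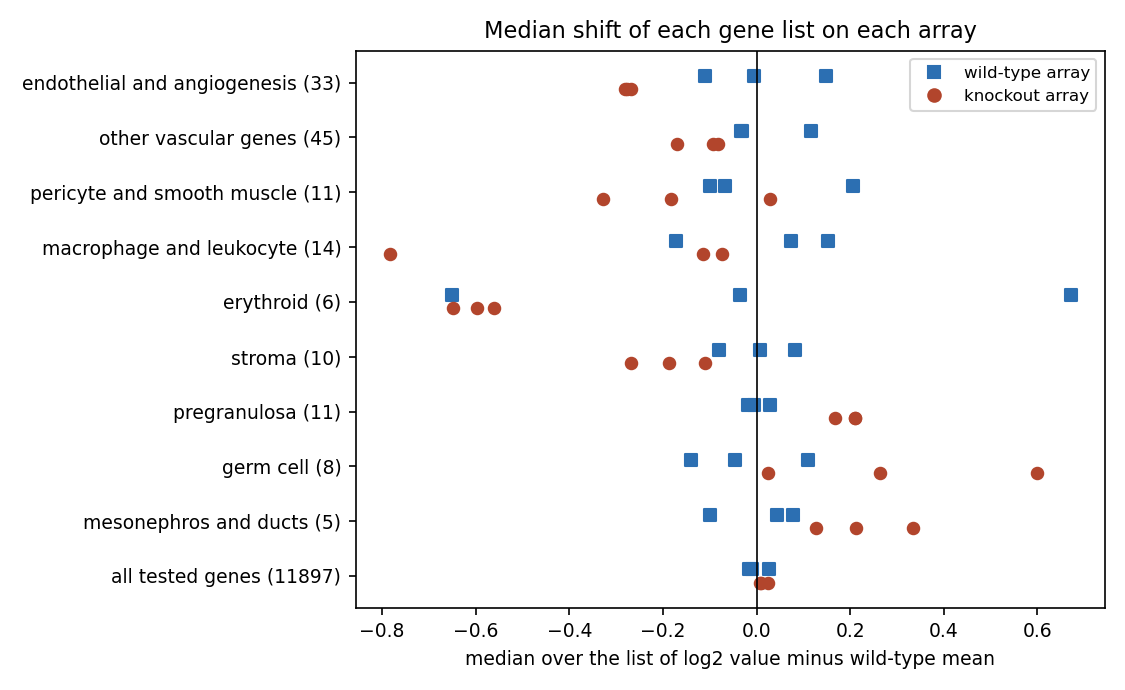
Median over each gene list of the log2 value minus the gene's wild-type mean, for each array, with the number of tested genes in brackets, squares for wild-type arrays and circles for knockout arrays. The 3 knockout circles of the endothelial and angiogenesis genes lie together near -0.27, below all wild-type squares; in the macrophage list knockout replicate 1 alone lies at -0.78, and the pregranulosa circles lie above the squares.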

How the data were processed

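The authors made the deposited intensities with GCRMA, per the submitters' processing notes; its version and settings are not given in the sources used here. The values are linear, 1 per probe set, without detection calls, and dim ones pile up near a floor. They were taken to log2 here. The table held 45101 probe sets, 64 of them controls that were dropped, and 22040 reached log2 4 on at least 3 of 6 arrays. Of the non-control probe sets 34945 named 1 gene, 932 several and 9160 none, by the platform annotation, with symbols updated through a RefSeq table of GRCm38.p6 (0 changed). The fit was limma 3.58.1 in R 4.3.3 (lmFit, then eBayes with its trend option, 2-sided, with genotype and no covariate), adjusted over all tested probe sets, and it was tested on simulated data. The number of arrays limits the precision. Arrays of a group correlated at 0.994 to 0.996 and arrays of different groups at 0.988 to 0.991 (log2), and 0 pairs of arrays were identical. The members and lists were chosen with earlier results of these data known. Values on every array are given for members that passed or whose groups did not overlap, with the 2 other members of highest mean per role by range; of other lists, the genes that passed are named. Names outside this rule, such as Adgrl4 and Pf4, were chosen after their values were seen. Pdgfra and Nr2f2 stand in both the other vascular and the stroma list. Each fold is 2 to the power of the mean log2 difference. Alternatives covered filters, eBayes settings, array weights, the replicate block, scaling, probe set choice, the threshold and leaving out each array.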

Additional observations from a re-analysis of the deposited data

How the results depend on the processing

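Of 17 alternatives, the count of 3 members called lower moved by over 1.5 times with eBayes without the intensity trend (1, Flt1), with averaged probe sets (1, Flt1), with an adjusted p under 0.10 (7) and on leaving out single arrays (0 to 5). The count of 4 other vascular genes called lower moved to 2 without the trend, to 0 with averaged probe sets and to 1 to 6 without single arrays. Members and other vascular genes called higher were 0 under every alternative. The median difference of tested members stayed between -0.34 and -0.18. With quantile normalization it was -0.25, while among dim members Vwf moved from -0.88 to -0.75 and Kdr from -0.25 to -0.16. For samples with the same replicate number, deviations from the group mean correlated at -0.11, -0.18 and -0.12. Between different numbers the correlations ran from -0.106 to 0.241. With 3 arrays a group these values cannot decide whether the numbers pair the samples. With the replicate block 2 members (Flt1 and Vwf) and 2 other vascular genes (Ptprb and Stab1) were called lower. Differences of single members changed sign in 20 of 552 cases, all in members without a call. With array weights Angpt1 was at -0.018 and Esam at -0.03, with averaged probe sets Fli1 at -0.15 and Ets1 at 0.002, and Ets1 at 0.039 when probe sets with an x, s or a suffix were dropped. Without single arrays Tie1 ranged from -0.203 to 0.270, Vegfc from -0.292 to 0.090, Angpt1 from -0.106 to 0.165, Angpt2 from -0.002 to 0.227, Tal1 from -0.440 to 0.026, Esam from -0.093 to 0.118, Plvap from -0.165 to 0.329 and Egfl7 from -0.104 to 0.056. Where a value changed, the cause was not tested. With 3 arrays a group and a floor for dim probe sets, small differences could not be detected.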

Other observations

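Besides Epas1, 5 genes of the hypoxia response among the other vascular genes did not pass. Hif1a differed by 0.01 ± 0.15 log2 units, its partner Arnt by -0.12 ± 0.13, Vhl, which marks HIF proteins for breakdown, by -0.10 ± 0.10, and the HIF-induced genes Egln3 and Adm by 0.19 ± 0.17 and -0.16 ± 0.16 (SE, n = 3 per group, limma adjusted p = 0.575 to 0.981 for these 5). Of genes that BMP signals induce in many cell types, Id1 read 263, 138 and 120 in knockout and 64.9, 102 and 122 in wild type, with overlap, and differed by 0.81 ± 0.32 (limma adjusted p = 0.177), Id3 by 0.33 ± 0.15 (0.253), Smad6 by 0.28 ± 0.18 (0.431) and Smad7 by 0.04 ± 0.13 (0.896).

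Arterial and Notch genes of the same list did not pass. Efnb2, an arterial ephrin, differed by 0.00 ± 0.13, Hey1 and Hey2, Notch targets, by 0.03 ± 0.24 and 0.10 ± 0.24, and Notch4 by -0.25 ± 0.19, while Dll4 and Gja5 were not tested. Of lymphatic genes, Prox1 (-0.26 ± 0.25, dim) and Pdpn (0.10 ± 0.10), which the ovarian surface also expresses, did not pass, nor did Vegfd (0.01 ± 0.23), with limma adjusted p of 0.616, 0.626 and 0.982. Stab1, a scavenger receptor of sinusoidal endothelium and macrophages, read 687, 859 and 1317 in knockout and 1491, 1377 and 1692 in wild type (-0.72 ± 0.21, limma adjusted p = 0.0737).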
